A study of Mus musculus with 16 samples.

Results

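Whole ovaries of ERα knockout mice (Ex3aERKO, 4 arrays) were compared with control ovaries that carried one allele of each estrogen receptor (control, 4 arrays). These are 8 of the 16 arrays of the series, chosen by their titles, and the whole list of measured genes was examined. All mice were aged 1 year, total RNA from the whole ovary was extracted with TRIzol and labelled with the dye Cy3, and each sample was read on 1 single-colour Agilent mouse array. The study asked what ERα and ERβ do in the conversion of ovarian granulosa cells in aged ovaries, and its other arrays carried the knockout of ERβ (Ex3bERKO, 4 arrays) or of both receptors. The control is not a mouse with 2 intact copies of each receptor, because 1 allele of ERα and 1 of ERβ were already missing there. Nothing in the labels ties a sample to 1 animal or a pool, and the p-values therefore rest on the spread among samples that could be technical repeats.

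ERα is a nuclear receptor that binds estrogen and then binds DNA, either directly at estrogen response elements or through other factors. In the ovary it is found mainly in theca cells, the stroma and the surface epithelium, while granulosa cells mostly carry ERβ. Mice that lack ERα in the whole body also lose the feedback of estrogen on the pituitary, so an ovary without it is exposed to another hormone supply, and a change seen in the whole ovary need not arise in cells that had carried the receptor.

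The promoters of genes that moved most were searched for the letters of the estrogen response element, since the comparison concerns the receptor that binds it. The search covered 250 bases before to 50 bases after the start of 14569 tested genes (RefSeq, GRCm38.p6), on both strands. The full element, GGTCA and TGACC in this order and 3 bases apart, was found in 7 promoters (0.048% of all) and in 0 of 645 promoters of genes higher and 0 of 681 of genes lower in Ex3aERKO. The shorter site TGACCT, which the full element can overlap, was in 16.1% of all promoters, 17.5% of those of genes that rose and 16.7% of those of genes that fell. It was in 5 of the 25 promoters matched among the largest changes. A match to the antioxidant response element, TGACNNNGC, stood in 15.7% of all promoters and in 3 of 17 promoters of glutathione S-transferase genes (17.6%). It also stood in 4 of 18 promoters of genes of cholesterol synthesis and uptake (22.2%). A match of letters is a description of these windows and neither a binding site nor a cause. The motifs and the promoters shown were chosen after the expression values were known. Shown here are 3 largely changed genes with the shorter site (Sult1e1 and Obp2a rose, Mmel1 fell) and Gsta3, the most increased glutathione S-transferase, each 5′ to 3′ on the strand of the gene and with the motif in capitals. They lie at chr5:87591562-87591861 (minus strand), chr2:25699824-25700123 (plus), chr4:154869335-154869634 (plus) and chr1:21240335-21240634 (plus). The first base of the motif stood 113 bases before the start in Sult1e1, 17 before it in Obp2a, 18 after it in Mmel1 and 121 before it in Gsta3.
Sult1e1: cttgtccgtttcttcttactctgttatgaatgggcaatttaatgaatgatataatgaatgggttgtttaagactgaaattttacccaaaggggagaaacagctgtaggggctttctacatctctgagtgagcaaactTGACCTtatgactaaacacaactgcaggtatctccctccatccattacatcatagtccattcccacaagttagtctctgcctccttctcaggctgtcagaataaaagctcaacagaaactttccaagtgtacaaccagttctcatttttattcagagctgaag
Obp2a: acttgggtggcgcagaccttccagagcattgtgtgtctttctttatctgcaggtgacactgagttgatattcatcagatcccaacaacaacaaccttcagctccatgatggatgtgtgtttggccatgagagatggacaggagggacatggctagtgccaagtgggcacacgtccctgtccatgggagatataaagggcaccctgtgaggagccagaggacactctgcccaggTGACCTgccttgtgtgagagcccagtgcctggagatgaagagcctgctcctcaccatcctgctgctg
Mmel1: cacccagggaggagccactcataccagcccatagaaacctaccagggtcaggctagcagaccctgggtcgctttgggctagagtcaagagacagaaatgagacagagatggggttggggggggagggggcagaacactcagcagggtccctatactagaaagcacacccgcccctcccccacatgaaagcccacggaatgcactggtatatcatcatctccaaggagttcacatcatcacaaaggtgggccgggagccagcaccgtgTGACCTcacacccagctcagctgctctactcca
Gsta3: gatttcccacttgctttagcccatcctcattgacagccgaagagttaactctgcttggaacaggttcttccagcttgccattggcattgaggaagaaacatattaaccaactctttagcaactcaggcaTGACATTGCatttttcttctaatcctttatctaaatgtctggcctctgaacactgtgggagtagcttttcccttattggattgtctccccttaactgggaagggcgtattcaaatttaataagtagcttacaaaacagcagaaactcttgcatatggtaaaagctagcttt

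The arrays were of similar brightness, with a 75th percentile of signal from 1211 to 1806 over the 16 arrays and 80.4% to 87.6% of the spots well above background. Levels in the following are the log2 of a probe's signal over its array's 75th percentile, and a difference is Ex3aERKO minus control on that scale. Array pairs of the control group correlated at r from 0.974 to 0.985 across probes and those of Ex3aERKO at 0.955 to 0.983. The 4 Ex3aERKO arrays shared 4 slides, each scanned in 1 session, with the 4 control arrays, 1 of each per slide. Esr1, the gene of ERα, fell by 2.38 ± 0.38 (SE), from levels of -0.32, -0.17, -0.12 and 0.20 in control replicates 1 to 4 to -2.18, -2.19, -1.89 and -3.66 in Ex3aERKO (adjusted p = 0.00174). All Ex3aERKO values lay under all control values. The part of the gene that was removed is not given in the sources used here, so this probe may not check the labels, and another Esr1 probe differed by -1.16 and was not called (adjusted p = 0.359). The gene of ERβ, Esr2, differed by -0.10 ± 0.51 (adjusted p = 0.955).

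Ex3aERKO 2 carried transcripts of the liver. Albumin (Alb) stood at 6.13 there and between -6.42 and -4.55 on the other 7 arrays. The median level of 36 liver genes was 1.75 on Ex3aERKO 2 and between -4.29 and -3.73 elsewhere, as the plot of marker lists by array shows, and the difference within its slide was 4.32 against 0.10 to 0.11 on the other slides. On this array 100 features lay at least 8-fold above all 7 others, of which 3 passed the test and 22 were on the liver list. Ex3aERKO 4 had 14 such features and control 1 had 11. Of the liver genes, 5 of 36 passed as higher, and 2 of 36 both without Ex3aERKO 2 and without the 3 arrays named below. Ass1, an enzyme of arginine synthesis and 1 of those 2, stood at -1.01, -0.22, -1.76 and -1.52 in control and at 2.40, 3.15, 3.05 and 2.78 in Ex3aERKO. Its rise of 3.97 ± 0.43 (15.7-fold, adjusted p = 0.000185) was as large without Ex3aERKO 2 (3.87). Hemoglobin genes stood apart on control 4: the summed signal of 12 erythroid genes, in units of an array's 75th percentile, was 379 there, 30.4 to 50.2 on the other control arrays and 91.5 to 247 in Ex3aERKO. Counts of list and family members below are therefore followed by the counts of higher and lower members without Ex3aERKO 2 and without 3 arrays high in liver, oviduct or erythroid genes (Ex3aERKO 2, control 4 and 1 array lacking both receptors). Leaving out arrays also removes the precision they gave.

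**Figure D1:**
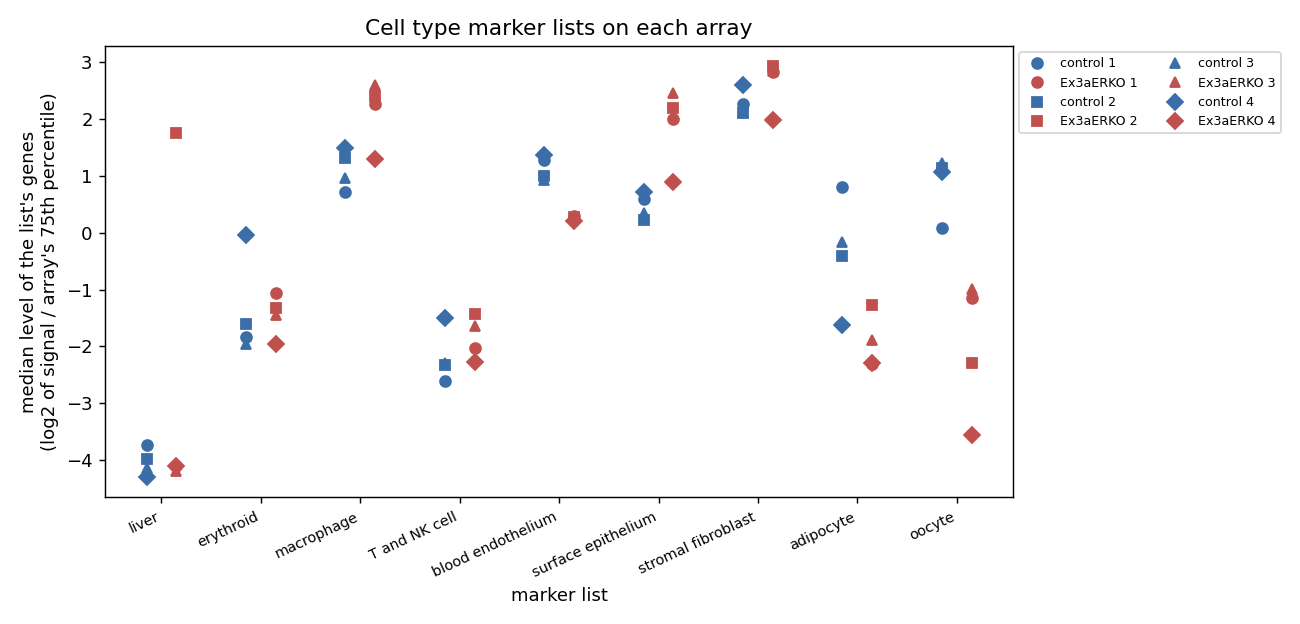
Median level of 9 marker lists (log2 of signal over the array's 75th percentile) on each of the 4 control (blue) and 4 Ex3aERKO (red) arrays, 1 symbol per replicate. The liver list stands at 1.75 on Ex3aERKO 2 and between -4.29 and -3.73 on all other arrays, the erythroid list is highest on control 4, and the endothelial and oocyte lists are lower on all Ex3aERKO than on all control arrays.

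Ovaries without ERα differed from control in a broad set of genes. In all, 1957 of 24428 features passed (8.01%), 934 higher (3.82%) and 1023 lower (4.19%), and 1365 of them differed at least 2-fold (5.59%). The median difference over all features was -0.08. The groups did not overlap in 4128 features (16.9%), and 5127 (21.0%) had an unadjusted p under 0.05. Without Ex3aERKO 2 the count was 1136 (4.65%, with 2.29% higher and 2.36% lower), of which 1105 were called with all arrays. Without the 3 arrays it was 556 (2.28%, with 1.13% higher and 1.14% lower). It was 2165 with slide as a block (8.86%), 1662 with median scaling (6.8%), 1933 with quantile normalization (7.91%) and 5381 with array weights (22.0%), and 963 features passed whichever of the 8 arrays was left out. The count was also over 1.5 times smaller without control 1 (1290), 3 (1149) or 4 (1249) or Ex3aERKO 3 (1205).

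Lcn2, a lipocalin that binds bacterial iron carriers, stood at -5.26, -5.21, -5.06 and -4.16 in control and at 3.85, 3.66, 3.89 and 2.80 in Ex3aERKO. It rose by 8.48 ± 1.08 (356-fold, adjusted p = 0.000447), the largest change measured on both sides. The groups did not overlap, which the rule for naming it required. Spink8, a serine protease inhibitor of the Kazal type, was well above background on no control array and at 0.41, 1.45, 2.75 and -1.47 in Ex3aERKO, at least 193-fold higher (adjusted p = 0.000539). Sult1e1, the sulfotransferase that inactivates estrogens, stood at -3.10, -3.78, -4.24 and -4.61 in control and at 2.72, 2.96, 2.50 and 2.09 in Ex3aERKO. Its rise was 6.50 ± 1.23 (90.5-fold, adjusted p = 0.00494), and its call was lost without the 3 arrays (adjusted p = 0.0690). Ly6d, a surface protein of the Ly6 family, went from -2.00, -1.72, -2.50 and -2.62 to 4.37, 4.37, 3.94 and 3.34 (74.3-fold, adjusted p = 0.000185). Car12, a carbonic anhydrase, rose by 6.01 ± 1.07 (64.6-fold), and its other probe rose by 2.74.

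Among the 15 largest rises, the defensins Defb8 and Defb7 rose by 118-fold and at least 19.6-fold, and the seminal vesicle protein gene Svs6 by 61.9-fold. Obp2a, an odorant-binding protein, was at least 16.7-fold and Pate6 at least 15.1-fold higher, from controls well above background on no array. Pate4 was uneven among the Ex3aERKO arrays, at -5.76, 1.37, 4.43 and -6.14, and its call (at least 38.8-fold, adjusted p = 0.0467) was lost without Ex3aERKO 2 (adjusted p = 0.147). Jak3, a kinase of cytokine receptors, read 107-fold higher with a probe at chromosome 8, 70157730 to 70157789 (mm7). The probe of Insl3, which rose 120-fold, lies next to it at 70157953 to 70158012, and the other probe of Jak3 differed by 0.51 and was not called, so transcripts of the neighbouring genes may not be told apart by that probe.

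**Figure D2:**
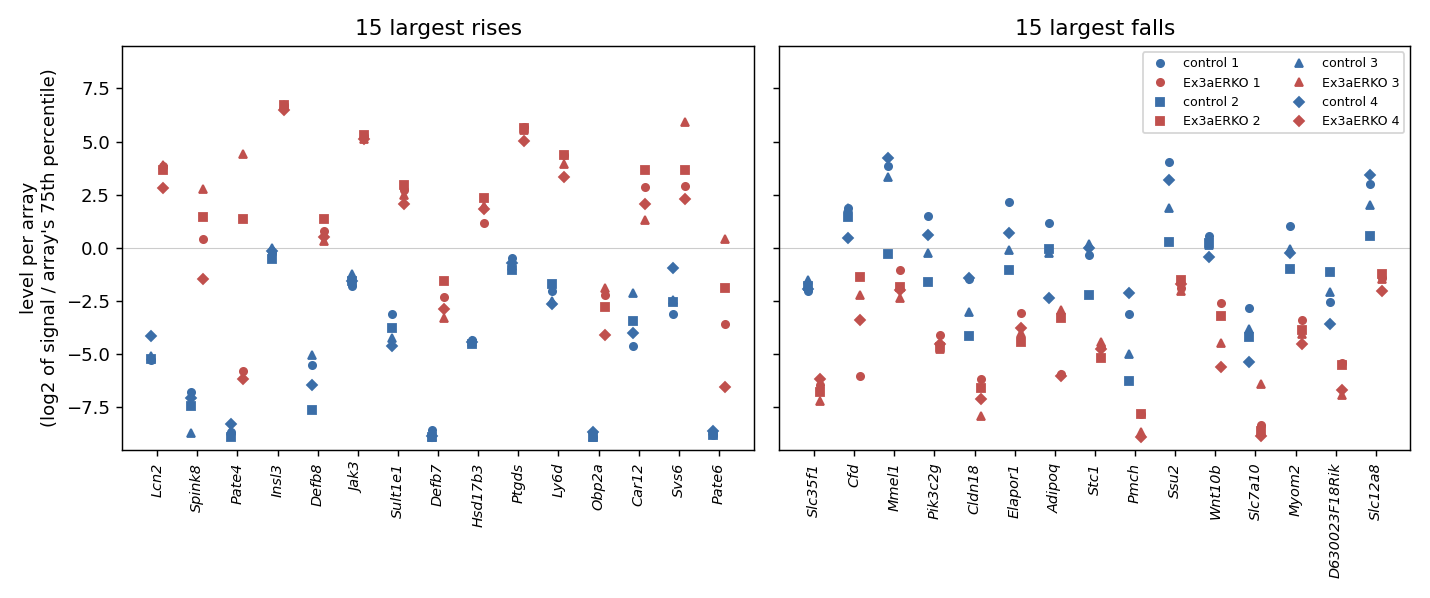
Level of the 15 genes with the largest called rise (left) and the 15 with the largest called fall (right) on each array (log2 of signal over the array's 75th percentile), control in blue and Ex3aERKO in red, 1 symbol per replicate. The groups do not overlap in any of the 30 genes, which the rule for naming them required. Lcn2 lies between -5.26 and -4.16 in control and between 2.80 and 3.89 in Ex3aERKO, and Slc35f1 at -1.49 to -2.03 and at -6.15 to -7.19.

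The largest falls were smaller than the largest rises. Slc35f1, a solute carrier, stood at -2.03, -1.81, -1.49 and -1.93 in control and at -6.43, -6.77, -7.19 and -6.15 in Ex3aERKO and fell by 4.82 ± 0.48 (28.2-fold, adjusted p = 0.000102), while its other probe fell by 2.09. Mmel1, a membrane peptidase of the neprilysin family, stood at 3.84, -0.29, 3.34 and 4.23 in control and at -1.05, -1.83, -2.37 and -1.98 in Ex3aERKO. Control 2 was the lowest control array for Mmel1 and still lay above every Ex3aERKO array (24.1-fold, adjusted p = 0.00167). Control 2 was also the lowest control array for Pik3c2g, a lipid kinase (fall of 24.1-fold), Cldn18 (21.6-fold), Elapor1 (19.0-fold) and Stc1, the hormone stanniocalcin (17.9-fold). The other probe of Pik3c2g differed by -0.30 and was not called (adjusted p = 0.756), and that of Stc1 fell by 2.71. Pmch, the precursor of melanin-concentrating hormone, was well above background on no Ex3aERKO array and at least 7.77-fold lower (adjusted p = 0.0331), a call lost without Ex3aERKO 2 (adjusted p = 0.0658).

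Genes of 61 lists were then counted, which held 1423 different genes. The plot of called members sets these counts against the shares over all genes. Among called members, lists of surface epithelium, prostaglandins, myeloid cells and antimicrobial proteins held mostly rises. Lists of blood endothelium, cholesterol synthesis and Notch signalling held only falls among them. Called members named from a list by the rule had to have groups that did not overlap. Their lack of overlap is thus no further result, and 16.9% of all features did not overlap.

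**Figure D3:**
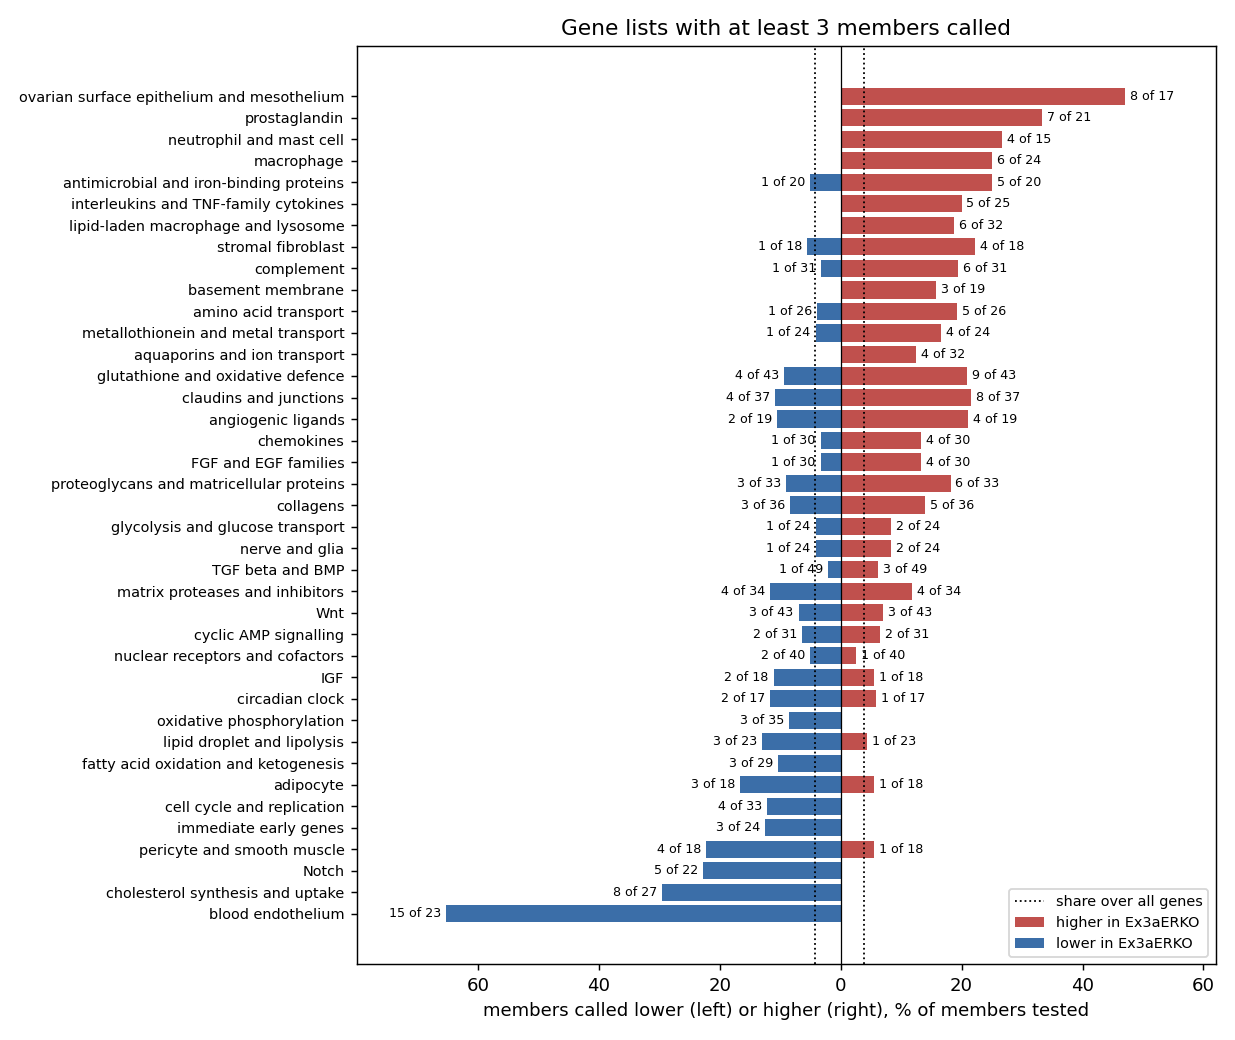
Share of each list's tested members called higher (red, to the right) or lower (blue, to the left) in Ex3aERKO than in control, in percent, for lists with at least 3 members called, leaving out the lists of Sertoli, granulosa, theca, luteal, oocyte, liver and adrenal genes. Dotted lines mark the shares over all features, 3.82% higher and 4.19% lower. Blood endothelium (15 of 23 lower) and surface epithelium (8 of 17 higher) reach farthest to each side.

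Genes of blood endothelium, the lining of blood vessels, were lower in Ex3aERKO. Of 23 tested, 15 fell, 0 rose and 8 did not pass, and the median difference was -0.91 against -0.08 over all features. Without Ex3aERKO 2, 12 fell, and without the 3 arrays 6. The median was -1.14, -1.06, -0.70 and -0.88 within the 4 slides. Icam2, an adhesion protein of endothelial cells, stood at 2.34, 1.89, 1.90 and 2.65 in control and at 0.37, 0.38, 0.28 and 0.25 in Ex3aERKO. The groups lay apart by more than the spread of either, where the rule for naming Icam2 already required groups without overlap. Icam2 fell by 1.87 ± 0.18 (3.66-fold, adjusted p = 9.61e-05). Aplnr, the receptor for the peptide apelin, fell by 1.92 ± 0.26, from 0.70, 0.33, 0.65 and 0.40 to -1.24, -1.54, -2.00 and -0.81, while its other probe differed by -0.76 and was not called. Sox18, a transcription factor of vessel formation, fell by 1.38 ± 0.19 and Nos3, the endothelial nitric oxide synthase, by 1.31 ± 0.25. Vwf, the clotting factor carrier stored by endothelial cells, was the single member above 0 (1.08, not called, with other probes at 1.14 and -0.73). The summed signal of the 23 genes was 57.7 to 79.6 in control and 34.3 to 40.5 in Ex3aERKO. In RNA from a whole ovary, fewer cells of a type and less RNA per cell cannot be told apart.

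**Figure D4:**
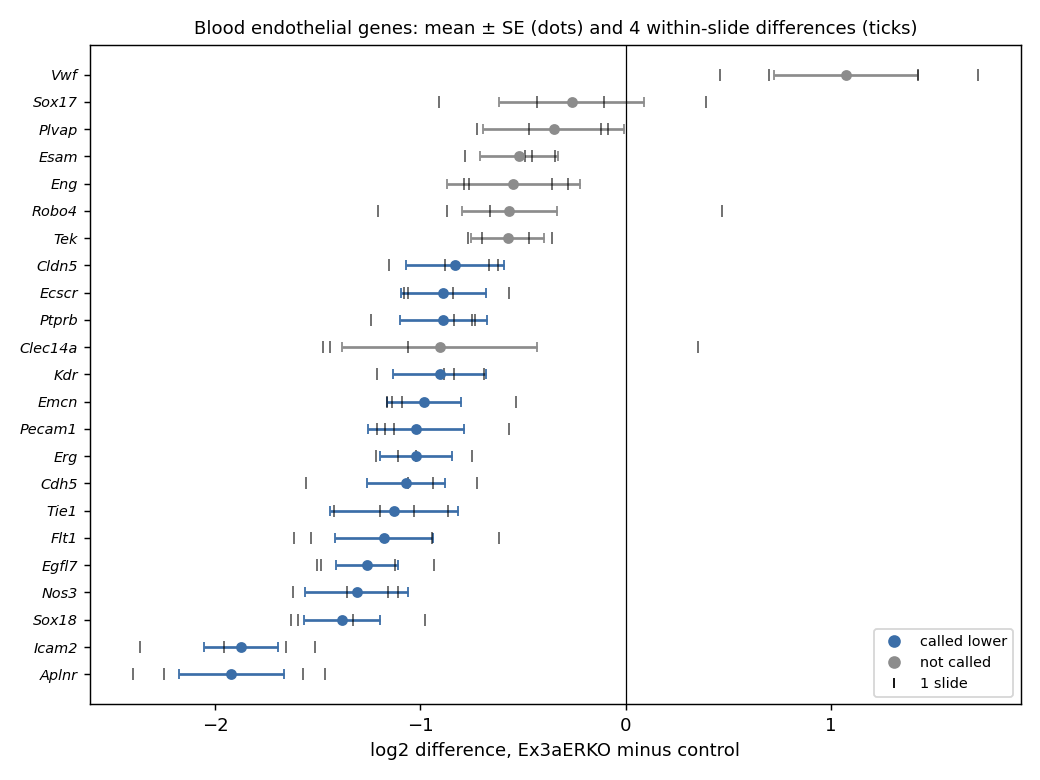
Difference of Ex3aERKO from control (log2) for 23 blood endothelial genes, as the mean with its standard error (dots, blue where called lower) and as the 4 differences within slides (ticks). The dots of 22 of the 23 genes lie under 0, and Icam2 and Aplnr differ by -1.87 and -1.92.

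Signals that act on vessels went both ways. Of 19 angiogenic ligands, 4 rose and 2 fell (3 and 2 without Ex3aERKO 2, 1 and 1 without the 3 arrays). Vegfa, the main growth factor of blood vessels, stood at 1.96, 1.55, 1.58 and 2.07 in control and at 0.14, -0.22, 0.13 and 0.64 in Ex3aERKO. Vegfa fell by 1.62 ± 0.27 (adjusted p = 0.00214). Angptl4, a secreted inhibitor of lipoprotein lipase, fell by 0.82 ± 0.18. Angpt4, a ligand of the endothelial receptor Tek, rose by 3.70 ± 0.55 (adjusted p = 0.00119), but its other probe differed by 0.30 and was not called. Sema3a, a guidance signal, rose by 1.31 ± 0.25 and Pdgfc by 1.17 ± 0.28, with the other probes of Pdgfc at 0.24 and 1.22. Vegfd, a growth factor of lymph vessels, rose by 1.72 ± 0.43 with control 1 missing, because its spot was marked as an outlier there, and the call was lost without Ex3aERKO 2 (adjusted p = 0.0797). Of 8 lymphatic genes 1 rose (1 and 0 without Ex3aERKO 2, 0 and 0 without the 3 arrays), Pdpn (1.46 ± 0.32), while Nrp2 differed by -0.30 ± 0.17 and Mmrn1 by -0.06 ± 0.37.

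Among called genes, those of the cells that wrap vessels and of Notch signalling, which patterns them, fell more often than they rose. Of 18 genes of pericytes and smooth muscle, 1 rose and 4 fell (0 and 2 without Ex3aERKO 2, 0 and 2 without the 3 arrays). Over all 18 the median difference was -0.11, near the -0.08 of all features, and 8 lay above 0. Pdgfrb, the receptor that recruits pericytes, stood at 2.81, 2.50, 2.67 and 2.85 in control and at 1.58, 1.66, 1.77 and 1.24 in Ex3aERKO (-1.14 ± 0.15, adjusted p = 0.000538). Abcc9 and Kcnj8, subunits of the potassium channel of pericytes, fell by 1.42 ± 0.28 and 0.83 ± 0.22, the second a call lost without Ex3aERKO 2 (adjusted p = 0.0755). Mylk, the kinase of the contractile light chain, rose by 0.83 ± 0.23, a call also lost without that array, and its other probes read -0.21 and 0.85. Of 22 Notch genes, 5 fell and 0 rose (3 without Ex3aERKO 2, 2 without the 3 arrays). They were Jag2, a ligand (-1.32 ± 0.25), Dll4, the endothelial ligand (-1.02 ± 0.16), the receptor Notch3 (-1.16 ± 0.29) and the targets Heyl (-1.35 ± 0.35) and Nrarp (-1.26 ± 0.26). Notch3 is also 1 of the 4 falls among pericyte genes. The median of the 22 Notch genes was -0.34, and 6 lay above 0. Dll4 stood at -2.06, -2.57, -2.40 and -2.33 in control and at -3.15, -3.56, -3.55 and -3.19 in Ex3aERKO, so that the groups did not overlap. Dll4 was named after its value was seen. As given above, endothelial genes moved in the same direction, and their part in the Notch values was not tested.

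Complement, the cascade of blood proteins that marks cells for removal, was higher at several steps and lower at one. Of 31 genes, 6 rose and 1 fell (median difference 0.58), with 5 and 3 without Ex3aERKO 2 and 4 and 1 without the 3 arrays. C3, the central component, stood at 3.55, 3.13, 3.81 and 4.29 in control and at 7.08, 7.52, 7.57 and 6.25 in Ex3aERKO (rise of 10.6-fold, adjusted p = 0.00152), and its other probe rose by 2.46. C7, a component of the pore, rose by 5.09 ± 1.07, from between -4.62 and -3.72 to between 0.37 and 1.83. C4b rose by 2.30 ± 0.45 and Cd55, which shields cells from complement, by 1.87 ± 0.31. Cfd, the protease adipsin that is made mainly by fat cells, fell by 4.67 ± 1.07, from 1.88, 1.46, 1.90 and 0.48 to -6.02, -1.35, -2.19 and -3.38. Cfd lay under all controls and the 4 risen genes above them on every Ex3aERKO array, which the rule for naming them required. Liver genes, which include complement, were high on Ex3aERKO 2 alone, and without it C3 rose by 3.27 and C7 by 5.08.

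Among 20 antimicrobial and iron-binding proteins, 5 rose and 1 fell (4 and 1 without Ex3aERKO 2, 2 and 1 without the 3 arrays). Wfdc2, a protease inhibitor of epithelial secretions, stood at -1.21, -1.05, -0.79 and -1.02 in control and at 3.78, 4.84, 4.78 and 2.64 in Ex3aERKO. It rose by 5.03 ± 0.51 (32.6-fold, adjusted p = 0.000120), and Ex3aERKO 4 was the lowest of its group. Wfdc18 rose by 4.46 ± 0.98. Slpi, an inhibitor of neutrophil elastase, rose by 2.38 ± 0.54, a call lost without Ex3aERKO 2 (adjusted p = 0.0533). Saa2, an acute phase protein, fell by 3.40 ± 0.57.

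Myeloid genes were higher, with Ex3aERKO 4 the lowest of its group for each one named. Of 24 macrophage genes, 6 rose and 0 fell, and 23 differed by more than 0 (median 0.93). Cd163, a scavenger receptor for hemoglobin, stood at -3.26, -3.58, -2.08 and -3.10 in control and at 0.50, 0.43, 0.82 and -0.31 in Ex3aERKO (3.37 ± 0.62, adjusted p = 0.00415). F13a1, a transglutaminase of tissue macrophages, rose by 2.59 ± 0.56. Cd68, a lysosomal marker of macrophages, rose by 1.54 ± 0.38 and Clec7a, the receptor dectin-1, by 1.27 ± 0.31, and both calls were lost without Ex3aERKO 2 (adjusted p = 0.0798 and 0.0800). Without that array 2 of the 24 genes passed, without the 3 arrays 0 and without Ex3aERKO 4 13. The summed signal of the list was 200.5 to 292 in control and 318 to 467 in Ex3aERKO.

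Lysosomal genes of lipid-laden macrophages rose in 6 of 32 cases and fell in 0 (1 and 0 without Ex3aERKO 2, 0 and 0 without the 3 arrays), and 10 rose without Ex3aERKO 4. Gpnmb, a glycoprotein of such cells, stood at 3.41, 2.59, 1.68 and 2.46 in control and at 4.39, 5.68, 5.73 and 4.35 in Ex3aERKO (2.51 ± 0.62, adjusted p = 0.0209). Ctsk, a collagen-cleaving cathepsin, rose by 1.60 ± 0.37 and Fabp5 by 1.74 ± 0.46. All 3 calls were lost without Ex3aERKO 2 (adjusted p = 0.0727, 0.0527 and 0.0950 for Gpnmb, Ctsk and Fabp5), with differences of 2.29, 1.48 and 1.61.

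Cytokine genes rose in small numbers. Of 30 chemokines, 4 rose and 1 fell (3 and 0 without Ex3aERKO 2, 1 and 0 without the 3 arrays), and 8 and 1 without Ex3aERKO 4. With limma 0 of 20 chemokine receptors passed (4 at an unadjusted p under 0.05, 5 with array weights). Ccl19, which attracts T cells and dendritic cells, stood at 0.25, -0.14, 0.28 and 1.08 in control and at 2.04, 2.49, 2.75 and 1.66 in Ex3aERKO (1.87 ± 0.31, adjusted p = 0.00225). Pf4 rose by 1.49 ± 0.34 and Cxcl1, which attracts neutrophils, by 1.40 ± 0.37, the second not without Ex3aERKO 2 (adjusted p = 0.0754). Of 25 interleukins and related cytokines, 5 rose and 0 fell (2 without Ex3aERKO 2, 0 without the 3 arrays). Il33, an alarm signal released from damaged cells, rose by 2.28 ± 0.48 (4.86-fold). Il1a rose by 1.50 ± 0.38 and Lta by 1.38 ± 0.38, both from levels of -4.89 or lower, and their calls were lost without Ex3aERKO 2. The other probe of Il1a differed by 0.58 and was not called. Il17re and Il17rb, named after their values were seen, are receptor chains of the interleukin 17 family and rose by 2.34 ± 0.38 and 2.38. Mast cell proteases Mcpt4 and Cma1 rose by 2.26 ± 0.49 and 1.95 ± 0.57, and 4 of 15 genes of neutrophils and mast cells rose (1 without Ex3aERKO 2, 0 without the 3 arrays).

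Genes of lymphocytes and of antigen presentation gave few calls. With limma 0 of 20 genes of T and NK cells, 0 of 15 of MHC class II and 0 of 14 of MHC class I passed. At an unadjusted p under 0.05 these counts were 5, 2 and 0, and with array weights 4, 2 and 0 passed. Without Ex3aERKO 4, 1 of the T and NK genes and 2 of class II rose. H2-Ab1 of class II differed by 0.08 ± 0.44 and H2-K1 of class I by 0.11 ± 0.32. Of 17 B and plasma cell genes, 1 rose and 1 fell (1 and 1 without Ex3aERKO 2, 1 and 0 without the 3 arrays). Tnfrsf17, the plasma cell receptor BCMA, rose by 2.44 ± 0.37, from between -5.23 and -3.99 to between -2.76 and -1.82. Sdc1, which is also made by epithelia, fell by 2.09 ± 0.43.

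Interferon-induced genes leaned lower, unevenly among slides. Of 27 genes, 26 differed by less than 0 (median -0.70), but the medians within slides were 0.86, -1.27, -0.16 and -1.18. Only 1 gene passed (3.7%, under the 8.01% of all features, and 0 without the 3 arrays). It was Bst2, which tethers budding viruses, with -1.21 ± 0.22 (levels of 5.61, 5.13, 6.03 and 5.93 in control and 4.32, 4.24, 4.44 and 4.85 in Ex3aERKO). A separate set of falls lay in the 2′-5′ oligoadenylate synthetase family: 5 of 11 Oas genes fell (45.5%, median -1.01), all of them in the Oas1 cluster, whose sequences are alike. Oas1d stood at 1.54, 2.77, 2.51 and 2.13 in control and at 0.51, -1.20, 0.74 and -2.72 in Ex3aERKO (-2.90 ± 0.63, adjusted p = 0.0111). Oas1h fell by 2.83, Oas1e by 2.74, Oas1c by 1.46 and Oas1f by 1.06. Oas1d is known from oocytes, and the summed signal of 18 oocyte genes was 32.3 to 66.9 in control and 2.73 to 13.2 in Ex3aERKO. The order of the 4 Ex3aERKO arrays in Oas1d, with replicates 2 and 4 lowest, was that of the oocyte list, and the part of oocyte RNA in these values was not tested. The Oas genes were counted after their values were seen, and 2 of the 11 passed without Ex3aERKO 2 and 0 without the 3 arrays.

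Genes of the ovarian surface epithelium, the cell layer that covers the ovary and the mesothelium it belongs to, were higher. Of 17 tested, 8 rose and 0 fell (median 1.51), with 6 risen and 1 fallen without Ex3aERKO 2, 0 without the 3 arrays and 13 risen without Ex3aERKO 4. The median within slides was 1.93, 1.69, 1.62 and 0.44, lowest on the slide of Ex3aERKO 4. Cdh1, the epithelial cadherin, stood at -1.85, -1.39, -1.37 and -1.46 in control and at 0.85, 1.75, 0.89 and -0.54 in Ex3aERKO (2.26 ± 0.45, adjusted p = 0.00673). Krt7, a keratin, rose by 2.07 ± 0.46, Lrrn4, a mesothelial membrane protein, by 1.96 ± 0.42 and Upk3b, a uroplakin, by 1.80 ± 0.39. Oviduct and ciliated genes gave 0 calls in 17 with limma (3 at an unadjusted p under 0.05), with Cfap126 at 0.09 ± 0.47, and their summed signal was 3.35 to 4.15 in control and 4.92 to 8.24 in Ex3aERKO.

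Cell junction genes moved in both directions. Of 37, 8 rose and 4 fell (7 and 2 without Ex3aERKO 2, 6 and 2 without the 3 arrays). The epithelial claudins Cldn7 and Cldn4 rose by 2.81 ± 0.51 and 2.78 ± 0.44. Cldn4 stood at -6.43, -5.27, -5.78 and -6.29 in control and at -3.06, -1.93, -4.19 and -3.46 in Ex3aERKO, with Ex3aERKO 2 highest, and it rose by 2.37 without that array. Cldn5, the claudin of endothelium, fell by 0.83 ± 0.24 (lost without Ex3aERKO 2, adjusted p = 0.107) and Gja4, a connexin of oocytes and arteries, by 1.01 ± 0.24. Cldn1 fell by 2.17 ± 0.43. Surface epithelial genes moved with the rising claudins and endothelial genes with Cldn5, and their part was not tested. Cldn5 is itself on the endothelial list.

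Genes of the extracellular matrix went both ways. Of 36 collagen genes, 5 rose and 3 fell (3 and 2 without Ex3aERKO 2, 3 and 1 without the 3 arrays). Col4a3 and Col4a4, which form a basement membrane network together, rose by 2.18 ± 0.25 and 1.55 ± 0.27 and Col4a6 by 1.95 ± 0.30. Col4a4 stood at 0.42, 0.40, 0.12 and 0.38 in control and at 2.06, 1.86, 2.11 and 1.50 in Ex3aERKO. These values lay far outside the control spread, where the rule for naming Col4a4 already required groups without overlap. Each of these genes also has a probe that did not pass, at -0.50 for Col4a3, -0.13 for Col4a6 and 0.09 for Col4a4, while a further probe of Col4a3 and of Col4a6 rose by 2.09 and 2.01. Col6a3, Col5a3 and Col26a1 fell by 1.08 ± 0.26, 1.39 ± 0.36 and 1.70 ± 0.37, while other probes of Col6a3 and Col5a3 differed by -0.09 and -0.46 and were not called. Of 19 basement membrane genes 3 rose (1 without Ex3aERKO 2, 1 without the 3 arrays), among them Lamb3, a laminin chain of epithelia (1.99 ± 0.33). Col18a1, itself a collagen gene, is another of the 3, so these counts are not separate from those of collagens.

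Matrix proteoglycans and their neighbours gave 6 rises and 3 falls in 33 genes (4 and 1 without Ex3aERKO 2, 2 and 0 without the 3 arrays). Spon1, a secreted adhesion protein, stood at -1.73, -0.70, -1.78 and -1.60 in control and at 2.28, 2.37, 2.12 and 1.18 in Ex3aERKO (3.44 ± 0.55, adjusted p = 0.00183). Acan, the proteoglycan of cartilage and of the follicle, rose by 1.55 ± 0.30. Lum, a proteoglycan that spaces collagen fibrils, went the other way, by -1.73 ± 0.40, with Ex3aERKO 4 lowest at 1.80. Matrix proteases and their inhibitors gave 4 rises and 4 falls in 34 genes (3 and 3 without Ex3aERKO 2, 2 and 0 without the 3 arrays). Mmp9, a gelatinase, stood at -3.74, -3.32, -2.50 and -3.05 in control and at -0.31, -0.21, -0.06 and -1.48 in Ex3aERKO. The rise of Mmp9 was 2.64 ± 0.45 (adjusted p = 0.00255), while Mmp13, Mmp16 and Mmp11 fell by 1.49, 1.61 and 1.27. Timp2 and Reck, inhibitors of matrix proteases, rose by 1.57 ± 0.29 and 1.33 ± 0.23. Of 18 stromal fibroblast genes, 4 rose and 1 fell (2 and 1 without Ex3aERKO 2, 0 and 0 without the 3 arrays). Their summed signal overlapped (209 to 280 in control, 200.2 to 412 in Ex3aERKO).

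Genes of cholesterol synthesis and uptake were lower, in most slides. Of 27 genes of cholesterol synthesis and uptake, 8 fell, 0 rose and 25 differed by less than 0 (median -0.65), with 5 without Ex3aERKO 2 and 1 without the 3 arrays. Within slides the median was -0.90, -1.15, 0.16 and -1.11, the single positive value on the slide of control 2, which was the lowest control array for the genes that follow. Fdps, which makes farnesyl diphosphate, stood at 5.39, 3.76, 4.54 and 5.30 in control and at 3.35, 3.01, 2.54 and 3.06 in Ex3aERKO (-1.76 ± 0.35, adjusted p = 0.00659). Scarb1, the receptor that takes up cholesterol esters from lipoproteins, fell by 1.71 ± 0.32 and Mvd, an enzyme of the mevalonate pathway, by 1.64 ± 0.35. Genes of luteal cells, which use cholesterol for steroid synthesis, moved with this list. Of 12, 6 fell and 1 rose (median -1.55), and their summed signal was 149.8 to 458 in control and 58.3 to 120.1 in Ex3aERKO, without overlap. The lists share Scarb1 and Hsd17b7, and the part of luteal cells in these values was not tested. A sterol regulatory element, TCACNCCAC, was found in 1 of 18 promoters of the list of cholesterol synthesis and uptake (5.56%, that of Hmgcs1) and in 1.47% of all. It was also in 2 of 17 promoters of glutathione S-transferase genes (11.8%), so a match was not particular to the cholesterol list.

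The perilipin Plin4, which coats lipid droplets, stood at 5.61, 4.34, 5.31 and 4.97 in control and at 1.44, 1.60, 0.57 and 1.90 in Ex3aERKO (-3.68 ± 0.38, adjusted p = 0.000129). Every Ex3aERKO array lay far under the lowest control array for Plin4, where the rule for naming it already required groups without overlap. Cidea, a fusion protein of lipid droplets in fat cells, went up instead, from between -3.57 and -3.42 to -2.14, 0.49, 0.31 and -2.05. Other lists of lipid metabolism gave few calls. Of 23 genes of lipid droplets and lipolysis, 1 rose and 3 fell (1 and 3 without Ex3aERKO 2, 0 and 1 without the 3 arrays), and of 20 genes of fatty acid synthesis 1 rose and 1 fell (1 and 0 without Ex3aERKO 2, 0 and 0 without the 3 arrays). Of 29 genes of fatty acid oxidation 3 fell (10.3%, against 4.19% of all features, and 0 both without Ex3aERKO 2 and without the 3 arrays), Cpt2 (-0.87 ± 0.21), Hadh (-0.81 ± 0.21) and Hadha (-0.73 ± 0.17), and each call was lost without Ex3aERKO 2 (adjusted p = 0.0716, 0.0864 and 0.0537). Of 18 adipocyte genes, 1 rose and 3 fell (1 and 3 without Ex3aERKO 2, 0 and 3 without the 3 arrays). Adipoq, the fat hormone adiponectin, fell by 4.17 ± 1.00 (18.0-fold, adjusted p = 0.0193), from 1.19, -0.03, -0.26 and -2.37 to -5.93, -3.30, -2.90 and -6.03. Both groups spread widely for Adipoq, and control 4 came closest to the Ex3aERKO arrays. The summed signal of the adipocyte list was 30.8 to 56.8 in control and 35.8 to 62.3 in Ex3aERKO, so the groups overlapped.

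Enzymes that conjugate glutathione to toxic compounds were higher. Of 22 Gst genes, 9 rose and 1 fell (45.5% called, against 8.01% of all features), with 7 and 1 without Ex3aERKO 2 and 6 and 1 without the 3 arrays. Gsta3, whose promoter is shown above, stood at 1.42, 1.48, 1.37 and 1.50 in control and at 5.45, 5.83, 5.42 and 5.06 in Ex3aERKO. The spread within a group was small beside the rise of 4.00 ± 0.38 (15.9-fold, adjusted p = 9.61e-05). Gsta1 rose by 2.69 ± 0.31, Gstm6 by 1.74 ± 0.34, Gstm2 by 1.49 ± 0.22 and Gstt3 by 1.34. Gsto1 fell by 0.87 ± 0.16. Mgst2, a membrane enzyme that joins glutathione to leukotriene A4, fell by 3.74 ± 0.48, from 5.16, 5.07, 5.93 and 5.70 to 1.81, 1.75, 1.27 and 2.09. Prdx2, a peroxiredoxin, fell by 0.81 ± 0.20, a call lost without Ex3aERKO 2 (adjusted p = 0.0757). Members of the Gsta and Gstm groups are close in sequence, and a probe may read more than one of them.

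Protease inhibitors of the serpin family and kallikreins also rose. Of 50 serpins, 11 rose and 0 fell (9 and 1 without Ex3aERKO 2, 7 and 1 without the 3 arrays), 8 of them of the Serpina3 cluster, whose members are near copies. Serpina3n, an inhibitor of granzyme and elastase, stood at -3.71, -4.50, -4.64 and -5.05 in control and at 1.05, 1.00, 1.11 and 0.08 in Ex3aERKO (38.9-fold, adjusted p = 0.000319). Liver makes serpins, and without Ex3aERKO 2 the rise of Serpina3n was 5.22. Serping1, the inhibitor of complement C1, rose by 1.74. Of 21 kallikreins, 6 rose and 0 fell (2 and 0 without Ex3aERKO 2, 1 and 0 without the 3 arrays), 5 of them of the Klk1b cluster. Klk1b24 stood at -1.08, -5.75, -5.77 and -7.34 in control and at -0.09, -0.10, 0.22 and -0.999 in Ex3aERKO. Control 1 lay close to the Ex3aERKO arrays, and the call (adjusted p = 0.0467) was lost without Ex3aERKO 2 (adjusted p = 0.110). These families were counted after values had been seen.

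**Figure D5:**
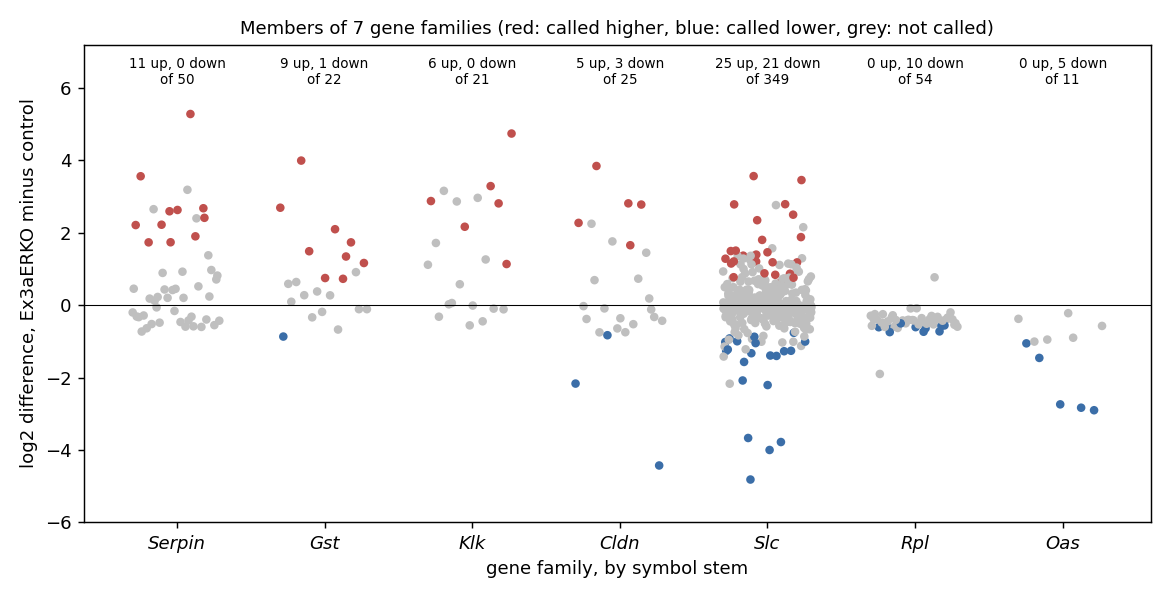
Difference of Ex3aERKO from control (log2) for the members of 7 gene families (1 point each, grouped by the stem of the symbol), red where called higher, blue where called lower and grey where not called. Gst and Serpin members rose (9 of 22 and 11 of 50), Rpl and Oas members that were called fell (10 of 54 and 5 of 11), and Slc members went both ways (25 higher and 21 lower of 349).

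Ribosomal protein genes lay slightly lower. Of 54 Rpl genes, 53 differed by less than 0 (median -0.44) and 10 fell (18.5%). Of 45 Rps genes 3 fell (6.67%), with a median of -0.39. Of all features 8.01% were called, and 4.19% fell. Rpl3 stood at 6.32, 6.50, 6.44 and 6.29 in control and at 6.16, 5.75, 5.83 and 5.56 in Ex3aERKO (-0.56 ± 0.15, adjusted p = 0.0299). With quantile normalization the median of the Rpl genes was -0.22 and 4 passed, and without Ex3aERKO 2 or without the 3 arrays 2 and 0 passed, so size and count depend on the scaling and on that array. Subunits of oxidative phosphorylation lay in the same range: of 35, 32 differed by less than 0 (median -0.36, or -0.19 with quantile normalization), and 3 fell, Uqcrfs1, Atp5c1 and Cox5b, by 0.65, 0.63 and 0.57. The share called (8.57%) was close to that of all features (8.01%). None of the 35 passed without Ex3aERKO 2 or without the 3 arrays. With median scaling 0 of the 35 passed with limma, and 1 with quantile normalization.

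Solute carriers went in both directions, with 25 of 349 higher and 21 lower (13.2% called), 16 and 11 without Ex3aERKO 2 and 7 and 7 without the 3 arrays. The sodium-proton exchanger Slc9a2 stood at -3.87, -3.81, -3.61 and -3.37 in control and at -0.40, 0.18, 0.45 and -1.06 in Ex3aERKO (3.46 ± 0.34, adjusted p = 9.61e-05). A pair of monoamine transporters moved oppositely. Slc6a2, which takes norepinephrine back into nerve endings, rose by 3.57 ± 0.51, from -5.44, -5.73, -4.98 and -6.25 to -3.53, -1.70, -2.08 and -0.83. Slc18a2, which loads monoamines into vesicles, fell by 3.67 ± 0.49, from 1.45, 2.38, 1.84 and 1.71 to -1.55, -1.09, -2.00 and -2.65. The groups did not overlap for either, and these carriers were named after their values were seen.

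Of 26 amino acid transporters, 5 rose and 1 fell (3 and 1 without Ex3aERKO 2, 1 and 0 without the 3 arrays). Slc7a11, the cystine carrier that supplies glutathione synthesis, rose by 1.51 ± 0.31, and Slc7a5, the carrier of large neutral amino acids, stood at 1.86, 2.31, 1.92 and 1.72 in control and at 3.36, 3.34, 4.02 and 3.07 in Ex3aERKO (adjusted p = 0.00101). Slc1a3, a glutamate carrier, rose by 1.37 ± 0.33, a call lost without Ex3aERKO 2 (adjusted p = 0.0533). Slc7a10 fell by 4.00 ± 0.86 and was well above background on 1 of 4 Ex3aERKO arrays. Of 32 genes of water and ion transport, 4 rose and 0 fell (4 and 1 without Ex3aERKO 2, 2 and 0 without the 3 arrays), among them Scnn1a and Scnn1b, subunits of the epithelial sodium channel (1.17 ± 0.19 and 2.00 ± 0.31). Of 24 genes of metal handling, 4 rose and 1 fell (1 and 0 without Ex3aERKO 2, 0 and 0 without the 3 arrays). Cp, the copper protein ceruloplasmin, rose by 2.30 ± 0.56 and Trf, transferrin, by 2.36 ± 0.53, and both calls were lost without Ex3aERKO 2, which at 4.50 was the highest array for Trf.

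Several genes of prostaglandin synthesis rose, while the list as a whole went both ways. Of 21 genes, 7 rose and 0 fell (5 and 0 without Ex3aERKO 2, 3 and 0 without the 3 arrays). The median difference was 0.23, with 11 genes above 0 and 10 below. At an unadjusted p under 0.05, 9 were higher and 4 lower, and the lowest difference was -2.46. Ptgs1, the constitutive cyclooxygenase, stood at -1.50, -0.35, -0.61 and -0.72 in control and at 1.14, 1.59, 1.24 and 0.14 in Ex3aERKO (1.82 ± 0.34, adjusted p = 0.00495). Ptgs2, the inducible cyclooxygenase, was well above background on no control array and on 4 of 4 Ex3aERKO arrays, at least 4.41-fold higher (adjusted p = 0.00682). Ptgis, the prostacyclin synthase, rose by 1.92 ± 0.31. The prostaglandin D synthase Ptgds went from between -1.05 and -0.46 to between 5.02 and 5.67, a rise of 6.25 ± 0.99.

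Lists of growth factor pathways gave few calls, in both directions. Of 43 Wnt genes, 3 rose and 3 fell (1 and 5 without Ex3aERKO 2, 0 and 2 without the 3 arrays). Wnt10b, a ligand that restrains fat cell formation, stood at 0.55, 0.22, 0.14 and -0.45 in control and at -2.61, -3.20, -4.49 and -5.58 in Ex3aERKO (17.0-fold lower, adjusted p = 0.00116). Rspo2, which amplifies Wnt signals and is made by oocytes, fell by 2.94 ± 0.50, from between -1.80 and -0.88 to between -5.63 and -3.34. Wnt2b, Rspo1 and Wnt5b rose by 1.39, 1.11 and 0.87, and the calls of Wnt2b and Rspo1 were lost without Ex3aERKO 2 (adjusted p = 0.0742 and 0.0754). Of 49 genes of TGF-β and BMP signalling, 3 rose and 1 fell (3 and 1 without Ex3aERKO 2, 1 and 1 without the 3 arrays), a share (8.16%) close to that of all features (8.01%). Chrdl1, an antagonist of BMP, stood at -3.50, -3.28, -4.15 and -3.95 in control and at 0.04, -0.40, -0.47 and -1.18 in Ex3aERKO (9.30-fold, adjusted p = 0.000209), and its other probe rose by 1.49. Ltbp1, which stores TGF-β in the matrix, fell by 2.08 ± 0.27 while its relative Ltbp2 rose by 1.11 ± 0.23, and other probes of Ltbp1 and Ltbp2 differed by -0.64 and 0.12 and were not called.

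Of 30 genes of the FGF and EGF families, 4 rose and 1 fell (3 and 0 without Ex3aERKO 2, 2 and 0 without the 3 arrays). Areg, a ligand of the EGF receptor that relays the ovulatory signal in follicles, rose by 4.32 ± 0.74 from controls well above background on 1 of 4 arrays, and stood at -2.28, -3.45, -4.93 and -4.12 in Ex3aERKO. The receptors Erbb3, Met and Fgfr4 rose by 1.62, 1.33 and 1.14, with the other probes at -0.16 to 0.50 for Erbb3, -0.08 and 1.53 for Met and 0.09 and 0.52 for Fgfr4. Of 24 genes of retinoid metabolism 1 rose and 1 fell (1 and 1 without Ex3aERKO 2, 1 and 0 without the 3 arrays), a share (8.33%) close to that of all features (8.01%). The risen gene was Aldh1a7, a relative of the enzymes of retinoic acid synthesis (2.73 ± 0.42). Of 31 genes of cyclic AMP signalling, 2 rose and 2 fell (1 and 2 without Ex3aERKO 2, 1 and 2 without the 3 arrays). Adcyap1, the neuropeptide PACAP, fell by 2.89 ± 0.44, from between -2.03 and -0.46 to between -5.11 and -3.44. Adcy4 fell by 1.24 ± 0.21 and Adcy7 rose by 1.08 ± 0.19, both adenylyl cyclases. Of 14 hedgehog genes 1 passed (7.14%, against 8.01% of all features, and 0 without the 3 arrays). It was the coreceptor Boc, which rose by 1.06 ± 0.22 with other probes at -0.61 and 0.21, and Smo differed by 0.00 ± 0.20. Of 17 clock genes, 1 rose and 2 fell (1 and 1 without Ex3aERKO 2, 1 and 0 without the 3 arrays). Dbp fell by 1.26 ± 0.24 and Hlf rose by 1.36 ± 0.27.

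Cell cycle genes leaned lower. Of 33, 28 differed by less than 0 (median -0.88), and 4 fell. Birc5, a survival protein of dividing cells, stood at 3.17, 3.50, 3.38 and 3.47 in control and at 2.14, 1.61, 1.90 and 2.83 in Ex3aERKO (-1.26 ± 0.29, adjusted p = 0.0146). Ex3aERKO 4 was the highest of its group for Birc5, Ccnb1 and Mcm6, and 18 of the 33 fell without it (5.26% of all features then fell), against 1 without Ex3aERKO 2 and 1 without the 3 arrays. The fourth was Cdkn1b, an inhibitor of the cycle (-1.26 ± 0.21). Of 24 immediate early genes 3 fell (3 without Ex3aERKO 2, 1 without the 3 arrays), among them Myc (-1.31 ± 0.19), which stood at 1.28, 1.38, 1.44 and 1.53 in control and at 0.22, 0.22, 0.18 and -0.22 in Ex3aERKO. Oocyte genes were lower as well, as given above, and the lists ordered the Ex3aERKO arrays differently. The median level of the cell cycle list was 0.36, 0.46, 0.50 and 1.15 in Ex3aERKO replicates 1 to 4, with replicate 4 highest. That of the oocyte list was -1.14, -2.28, -0.99 and -3.55, with replicate 4 lowest. Oocytes and dividing follicle cells share some cell cycle genes, and their part was not tested. Stress and survival lists gave few calls: of 24 genes of the unfolded protein response 1 fell (Asns, -0.999 ± 0.26), and of 34 apoptosis genes 2 rose (Bcl2, 0.70 ± 0.20, and Bcl2l11, 0.62 ± 0.17). Both shares (4.17% and 5.88%) lay under the 8.01% of all features. The other probes of Bcl2l11 read -0.12 and 0.16. Without Ex3aERKO 2 these 3 calls were lost and 1 other apoptosis gene fell, and without the 3 arrays 0 of either list passed.

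The 4 Ex3aERKO arrays did not show the rises equally. Among the 934 features called higher, Ex3aERKO 4 was the lowest array of its group in 570 and Ex3aERKO 2 the highest in 363. The median difference of each array from the control mean over these features was 1.49, 1.75, 1.64 and 1.20 for replicates 1 to 4. Among the 1023 features called lower these medians were -1.08, -1.24, -1.22 and -1.13, closer to each other. Liver genes are high on Ex3aERKO 2, and their part in its higher median was not tested beyond the counts without it.

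Whether a change from control differed from that in the ovary without ERβ was tested in the same model as Ex3aERKO against Ex3bERKO, where 572 of 24428 features passed (2.34%), 158 higher (0.647%) and 414 lower (1.69%). Both comparisons use the same Ex3aERKO arrays. Of the 934 features higher than control, 133 were also higher than in Ex3bERKO, and of the 1023 lower ones 295 were also lower, while 0 and 3 differed the opposite way. Wfdc2 was 4.25, Ly6d 4.30, Defb8 6.75 and Slc9a2 2.88 above Ex3bERKO (adjusted p = 0.000821, 0.00312, 0.000697 and 0.000712). Slc35f1 and Slc18a2 differed from Ex3bERKO by -4.30 and -4.16, and the endothelial genes Icam2, Aplnr and Sox18 by -1.16, -1.15 and -0.94, all called as lower. The other fallen endothelial genes, among them Nos3, are not given against Ex3bERKO here, so these values do not describe the list as a whole. Other genes far from control did not pass against Ex3bERKO: Mmel1 differed by 1.21, Pik3c2g by -0.42, Cldn18 by 0.27, Elapor1 by -0.10 and Fdps by 0.09 (adjusted p from 0.554 to 0.975), which does not show that the knockouts are alike in them. Plin4 was lower than control but 1.75 higher than in Ex3bERKO (adjusted p = 0.0239).

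For the cell types of the gonad itself, 6 of 15 Sertoli cell genes rose and 0 fell (4 and 0 without Ex3aERKO 2, 4 and 0 without the 3 arrays). Of 16 granulosa genes, 3 rose and 1 fell (4 and 1 without Ex3aERKO 2, 1 and 0 without the 3 arrays), and of 13 theca and Leydig genes 4 rose and 4 fell (3 and 3 without Ex3aERKO 2, 3 and 2 without the 3 arrays). Of the 12 luteal genes, 1 rose and 6 fell (1 and 5 without Ex3aERKO 2, 0 and 3 without the 3 arrays). Of 18 oocyte genes 15 fell (13 without Ex3aERKO 2, 6 without the 3 arrays). The decline of the oocyte list held on each slide, and 8 of 14 genes of the Nlrp family, several of which act in oocytes, fell as well (5 without Ex3aERKO 2, 1 without the 3 arrays). Nlrp4b fell by 3.40 and Nlrp4a by 3.23.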

How the data were processed

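Each sample was 1 single-colour Agilent array of Cy3-labelled total RNA from whole ovary. The deposited intensity values are processed signals, made by the authors with Agilent Feature Extraction (9.5 per the submitters' processing notes), which subtracted background within each array per the file headers. No normalization between arrays had been applied, and the authors' deposited value table equalled these intensity values for 41174 of 41174 probes (tolerance 0.001). Each array was divided by its 75th percentile over 43379 non-control spots, floored at -8.88 and taken to log2. Spots marked as outliers were dropped (76 features then lack an array), saturated spots kept, and spots of a probe averaged. A probe was kept when well above background on at least 4 of 16 arrays (36224 probes), and the brightest kept probe stood for its gene, leaving 24428 features, 18504 of them with a symbol. Probes were named through accessions in a RefSeq table of GRCm38.p6 (22951), a current (6659) or older (3109) symbol or a gene number (294). The other 8161 stayed unnamed. Positions of probes come from the array files and refer to mm7, a build not used here for annotation, so exons are not named.

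Differences were tested with limma 3.58.1 (lmFit and eBayes, R 4.3.3; tables with pandas 2.3.3, figures with matplotlib 3.10.9) over all 16 arrays with 1 mean per group and 12 residual degrees of freedom, two-sided, with Benjamini-Hochberg adjustment over 24428 features. A gene passed, rose or fell at an adjusted p under 0.05, and values after ± are standard errors, with n = 4 per group. A gene not well above background anywhere in a group has only a bound ("at least"): the bright mean over the dim mean, each dim array entering at its own signal or, if higher, at the weakest signal called above background on it. In simulated data the model recovered 28% of 100 features changed by 1 and 72% of 100 changed by 2 on the log2 scale in this comparison over 24428 features, and called 6 unchanged ones. Noise there was normal and independent for each array, without deviations shared by arrays of 1 slide. Far fewer features were changed than passed in the data, so these rates need not hold for the real arrays. Array number limits the precision.

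The 61 gene lists, the genes named and the members compared were chosen with earlier results of these data known. From each list the text could name up to 4 called members per direction whose groups did not overlap, by size of difference, or up to 2 others by brightness where fewer than 2 passed, and over all genes the 15 largest rises and falls. Gene families, motifs and promoters were chosen after values were seen. Alternatives were median and quantile scaling, normexp background, other filters, the mean of a gene's probes, a fixed or random slide block, the replicate number as a block, only the 8 arrays compared, array weights, trend with robust variance, the authors' deposited table and leaving out arrays. Same-numbered samples deviated together with correlations of -0.22, -0.13, -0.13 and -0.17, so the numbers do not pair the samples, while arrays of 1 slide correlated at 0.28 to 0.40. The results of a few genes are not reported here.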

Additional observations from a re-analysis of the deposited data

Results flagged for a closer look

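In 31 of 477 groups of 4 arrays tested (6.5%), the highest or lowest array of a gene lay far from the other 3, by a gap over the 95% critical value of Dixon's test, where chance alone gives about 1 in 20. Of these values 15 were on Ex3aERKO 4. It was the lowest of its group in 13. Among matrix and mesenchymal genes, Lum stood at 1.80 (2.76 to 2.86 on the others), Timp2 stood at 5.37 (6.04 to 6.18 on the others), Adamts19 stood at -2.11 (-0.80 to -0.67 on the others) and Pdgfra stood at 2.27 (2.90 to 2.97 on the others) (the receptor for platelet-derived growth factor A). Lrrn4 of the mesothelium stood at -2.15, Sema3a at -4.74, the secreted protein Dkk3 at -2.70, Ptgds at 5.02 and Myc at -0.22. Slc26a4, an anion exchanger, stood at -5.62, the nuclear receptor Nr2f1 at -8.13, Insl3, a hormone of theca and Leydig cells, at 6.49 and Esr1 at -3.66. Smo (4.20) and Ltbp1 (-0.35) were highest on that array.

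On Ex3aERKO 2, Arg1, an arginase of liver and macrophages, stood at 0.46 (-1.79 to -1.54 on the others), beside the liver genes of that array. On Ex3aERKO 3, Akr1b7, an aldose reductase, was lowest (-1.67), and on Ex3aERKO 1 Retn, the fat cell hormone resistin (-4.97). On control 2, Cyp19a1 stood at 3.56 (0.70 to 1.01 on the others), the aromatase that makes estrogens, and Esr2 (0.34), Spon1 (-0.70) and Areg (-5.77) were also highest. On control 1, Ahsg, a serum glycoprotein made by liver, stood at -0.13 (-1.33 to -1.33 on the others), and Slc2a3 (-1.04), Gja4 (1.13) and Defb7 (-8.54, near the floor) were highest. On control 3, Fabp5 (-3.70) and Col4a4 (0.12) were lowest and Acan (-1.98) was highest. On control 4, Retn was lowest (-3.92) and Obp2a highest (-8.66, the others at the floor of -8.88).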

How the results depend on the processing

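In Ex3aERKO against control, 1957 features passed. The count was 5381 with array weights, 556 without the 3 arrays high in liver, oviduct or erythroid genes, and from 1136 (without Ex3aERKO 2) to 2487 (without Ex3aERKO 4) with 1 of the 8 arrays left out. It was within 1.5 times of the reported count under the others: 1662 with median scaling, 1933 with quantile normalization, 2189 with normexp, 1958 with the filter on all 16 arrays, 1868 with no filter, 1916 with the mean of probes, 2165 with a fixed and 2505 with a random slide block, 1868 with only the 8 arrays, 2298 with trend and robust variance and 1949 with the authors' deposited table. The share called higher ran from 42.2% to 53.6% (47.7% as reported). In Ex3aERKO against Ex3bERKO, 572 passed, 117 with only the 8 arrays of those groups, 1611 with array weights, and 345 to 821 with 1 array left out. The replicate numbers did not pair the samples, and with the replicate block 1802 and 485 features passed, 1684 of the first among those reported. Of 219 named genes that passed, 218 kept their sign within all 4 slides. For genes named by the rule this was fixed in advance, since their groups had to be without overlap. Of the 219, 70 were lost without Ex3aERKO 2, 10 with slide as a fixed block, 19 with the replicate block and 129 without the 3 arrays. Leaving out 1 other array lost 65 (Ex3aERKO 3), 64 (control 3), 55 (control 1), 53 (control 4), 38 (Ex3aERKO 1), 33 (control 2) or 13 (Ex3aERKO 4). No named gene that passed changed sign under the alternatives run. Where arrays were left out, the lack of overlap also fixed this in advance for genes named by the rule. Genes well above background on no array of a group have only a bound. The cause of these changes was not tested.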
